A study of Mus musculus with 23 samples.

Results

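The effect of diet on ovary RNA that C57BL/6J, CAST/EiJ and NZO/HlLtJ female mice had in common was measured as 1 contrast. It is the mean over the 3 strains, each with equal weight, of the level on 44% fat minus the level on 10% fat. All 23 of 23 libraries entered it, and the genes described are those whose difference has the same sign in each strain. C57BL/6J is a widely used inbred strain. CAST/EiJ was bred from wild castaneus mice, and NZO/HlLtJ is prone to obesity and diabetes. The high-fat diet held 44% fat with fiber and much sugar, so effects of fat and of sugar cannot be told apart, and the control diet held 10% fat with fiber. Diets ran from 6 to 15 weeks of age in wild-type animals. There were 4 libraries on 44% fat and 3 on 10% fat in C57BL/6J, 4 on 44% fat and 4 on 10% fat in CAST/EiJ, and 4 on 44% fat and 4 on 10% fat in NZO/HlLtJ. Replicates are numbered by order of deposit, and the labels leave unsaid whether libraries stand for separate animals, so p-values rest on the spread between libraries, part of which may be technical.

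The ovary makes its sex steroids from cholesterol, which its cells synthesise themselves through the mevalonate and sterol pathway or take up from lipoproteins through receptors such as SCARB1. SREBP-2 is the transcription factor that raises the pathway's genes when cell sterol is low, and it binds sterol regulatory elements in their promoters, often beside CCAAT boxes bound by NF-Y. Steroid output also follows the estrous cycle: the surge of luteinising hormone induces a set of ovulatory genes in granulosa cells, and the corpus luteum that forms afterwards is rich in cholesterol-handling genes. The labels give no cycle stage.

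Libraries held 31.94 to 45.85 M counts, and 20189 of 24716 genes passed the filter on low counts (81.7%). The ovary markers Zp3 and Gdf9 of oocytes, Amh of granulosa cells and Cyp11a1 of steroid-making cells were present in every library, at 12.1 to 60.9, 24.2 to 121, 27.8 to 165 and 871 to 6280 CPM, the gene's counts scaled to a common library size. A pair of libraries stood apart by oviduct RNA. The summed level of 10 oviduct epithelium markers was 254 CPM in C57BL/6J 44% fat replicate 1 and 5200 CPM in CAST/EiJ 10% fat replicate 2, against 18.6 to 66.9 CPM in the other libraries, and the second also held 2330 CPM of white adipocyte markers. The submitters' library identifiers fall into 3 number series that begin with 76, 82 and 90. Their meaning is not stated, and only series 76 has both diets in all 3 strains. In bulk tissue, fewer cells of a type and less RNA per cell cannot be told apart.

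No gene passed an adjusted p of 0.05 for the diet contrast averaged over strains in edgeR's quasi-likelihood test (0 of 20189, 0%), and the smallest adjusted p was 0.382. At an unadjusted p under 0.05 there were 1190 genes (5.89%), against the 5% that such a threshold lets through where nothing differs. Of these, 527 were higher on 44% fat (2.61%) and 663 were lower (3.28%). DESeq2 called 18 genes, of which 13 had the same sign in each strain, limma with library weights called 1, and limma on variance-stabilised values called 0. Without C57BL/6J 10% fat replicate 2, edgeR itself called 7 genes, 6 of them with the same sign in each strain. That fit kept replicates 1 and 3 of the group, at 34.1 and 29.5 CPM of Pappa2 against 0.859 CPM in replicate 2.

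The sign of the difference was shared by all strains in 4196 genes (20.8%), of which 2020 were higher on 44% fat (10%) and 2176 were lower (10.8%). Signs drawn at random in each strain would agree in at least that share of genes, so the count is no evidence of a shared effect. Among these, 806 had an unadjusted p under 0.05 (3.99%), of which 363 were higher (1.8%) and 443 lower (2.19%). Strain accounted for 57.7% of the summed squares of log2 CPM, diet for 2.06%, strain-by-diet for 5.23% and the libraries within groups for 35%. These shares rest on 2, 1, 2 and 17 degrees of freedom in that order. Per degree of freedom, the share of diet was close to that of the libraries within groups. The test for a strain-by-diet difference called 23 genes (0.114%), and 0 of these had the same sign in each strain. Diet alone called 126 genes in CAST/EiJ (0.624%), of which 8 had the same sign in each strain, and 0 in C57BL/6J and in NZO/HlLtJ (0% each). For genes at a mean of 5 CPM or more, the 95% interval of the averaged difference lay within 1.5-fold of no difference for 11422 of 12342 genes (92.5%), which is the precision of the design.

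**Figure D1:**
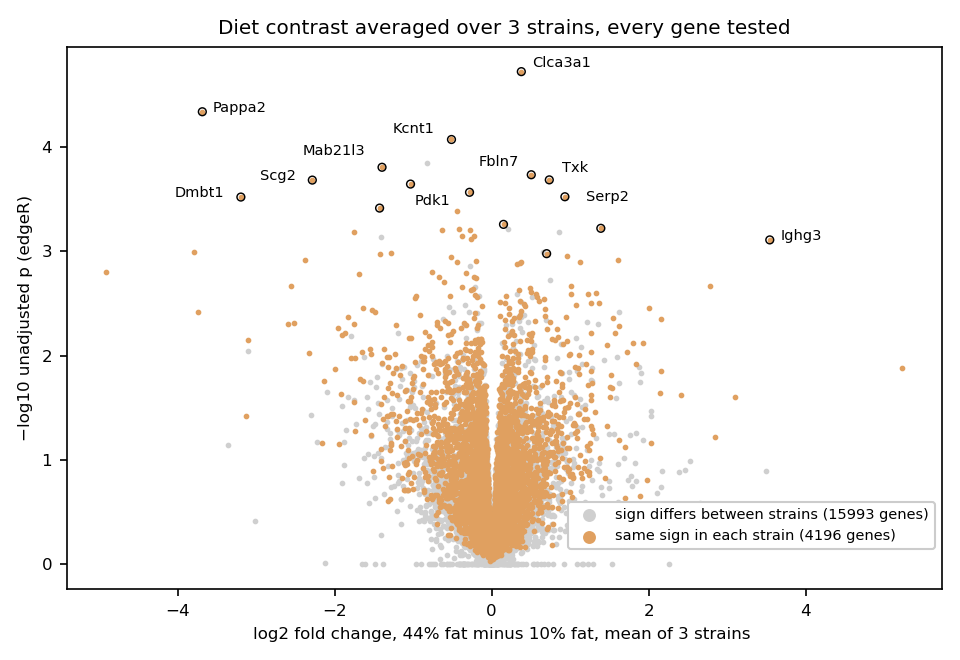
Each point is 1 of the 20189 genes tested, with the log2 fold change (44% fat minus 10% fat, mean of 3 strains) on the x axis and the −log10 unadjusted p from edgeR on the y axis; orange points are the 4196 genes with the same sign in each strain. The circled points are the 16 genes described by name, with Clca3a1 at the top, and none of them passed the adjusted threshold.

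The genes that came closest were mixed in function. Because 0 genes passed, the 8 smallest p in each direction with the same sign in each strain are given as values, 16 genes in all. On the higher side they were Clca3a1, Fbln7, Txk, Serp2, Eftud1, Gm16867, Ighg3 and Zfp607. On the lower side they were Pappa2, Kcnt1, Mab21l3, Scg2, Gabrb1, Pdk1, Dmbt1 and 1010001B22Rik. DESeq2 called 12 of the 16.

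Clca3a1 belongs to the calcium-activated chloride channel accessory family and is known in mice as a surface protein of lymphatic vessel lining cells. It lies on chromosome 3 at 144729677 to 144760977 (GRCm38) in a cluster of similar Clca genes, so reads that match several of them could be split by the authors' counting. In C57BL/6J it stood at 34.9, 29.6, 37.4 and 33.7 CPM on 44% fat, against 24.1, 27.3 and 20.1 CPM on 10% fat. In CAST/EiJ the values were 18.6, 20.1, 16.3 and 17.6 CPM on 44% fat, against 14.7, 11.7, 16.7 and 14 CPM on 10% fat. In NZO/HlLtJ they were 32.7, 28.9, 35.0 and 30.4 CPM on 44% fat, against 26.1, 27.7, 22.4 and 28.5 CPM on 10% fat. The diets did not overlap in C57BL/6J or NZO/HlLtJ, and in CAST/EiJ 1 library of each diet crossed the other group. The averaged log2 difference was 0.38 (95% interval 0.24 to 0.52), which is 1.3-fold, with 0.51 in C57BL/6J, 0.35 in CAST/EiJ and 0.28 in NZO/HlLtJ. Its unadjusted p was 1.89e-05 and its adjusted p 0.382 in edgeR, while DESeq2 gave an adjusted p of 0.000817. Leaving out any 1 library kept the difference between 0.34 and 0.42. Within identifier series the mean difference was 0.35 in series 76 (3 strains), 0.57 in series 82 (2 strains) and 0.21 in series 90 (CAST/EiJ only).

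Fbln7, a fibulin of the extracellular matrix, had the same order. In C57BL/6J it stood at 10.6, 13.0, 12.1 and 16.5 CPM on 44% fat, against 6.75, 9.32 and 7.52 CPM on 10% fat. In CAST/EiJ it stood at 19.1, 18.1, 17.2 and 18 CPM on 44% fat, against 15.1, 8.99, 13.9 and 13.9 CPM on 10% fat. In NZO/HlLtJ it stood at 10.8, 11.4, 10.5 and 9.97 CPM on 44% fat, against 8.0, 9.5, 5.56 and 11.5 CPM on 10% fat. The diets were separate in C57BL/6J and CAST/EiJ, while in NZO/HlLtJ the highest library of all was on 10% fat. The averaged log2 difference was 0.50 (95% interval 0.27 to 0.74), with an adjusted p of 0.507, or 0.0212 with DESeq2. Series 76, 82 and 90 gave 0.44, 0.78 and 0.37.

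Txk, a Tec-family tyrosine kinase of T cells and natural killer cells, was low in every library. It had 3.84, 2.17, 4.51 and 3.34 CPM in C57BL/6J on 44% fat, against 1.56, 2.58 and 2.31 CPM on 10% fat. CAST/EiJ had 0.487, 0.701, 0.308 and 0.3 CPM on 44% fat, against 0.258, 0.272, 0.273 and 0.184 CPM on 10% fat. NZO/HlLtJ had 3.76, 3.4, 3.04 and 3.1 CPM on 44% fat, against 1.75, 2.7, 1.78 and 2.15 CPM on 10% fat. The diets were separate in CAST/EiJ and NZO/HlLtJ, and C57BL/6J 44% fat replicate 2 lay among the 10% fat libraries. The log2 difference was 0.73 (95% interval 0.40 to 1.07), with 0.69, 0.85 and 0.67 in C57BL/6J, CAST/EiJ and NZO/HlLtJ, and the adjusted p was 0.507. The summed level of the 12 lymphocyte markers did not separate the diets in C57BL/6J, at 37.7 to 43.4 CPM on 44% fat against 34.8 to 43.4 CPM on 10% fat. It was 21.4 to 35.6 CPM on 44% fat against 14.1 to 21.9 CPM on 10% fat in CAST/EiJ, and 24.9 to 43.3 CPM on 44% fat against 29.7 to 40.3 CPM on 10% fat in NZO/HlLtJ. Their part in the Txk values was not tested.

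The other 5 genes on the higher side each leaned on 1 strain or on very low counts. Serp2, a stress-associated protein of the endoplasmic reticulum, had log2 differences of 0.33 in C57BL/6J, 1.56 in CAST/EiJ and 0.91 in NZO/HlLtJ, and an average of 0.93. Eftud1, a GTPase of ribosome maturation, differed by 0.07, 0.05 and 0.34 in the same order of strains. Its diets did not overlap in C57BL/6J or NZO/HlLtJ, at 43.0, 40.1, 45.6 and 45.9 CPM on 44% fat against 33.9, 37.6, 35.6 and 31.1 CPM on 10% fat in NZO/HlLtJ. Gm16867 and Zfp607, a zinc finger protein, took most of their averages of 1.39 and 0.70 from NZO/HlLtJ, where both were under 1.2 CPM. Both have similar copies with which reads may be shared, so their values are uncertain. Ighg3, the constant region of an immunoglobulin G subclass made by plasma cells, was under 1.2 CPM in every library except C57BL/6J 44% fat replicate 2 at 5.52 CPM. Its fitted difference of 3.54 is set by counts near 0, and reads of related immunoglobulin segments may be shared.

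**Figure D2:**
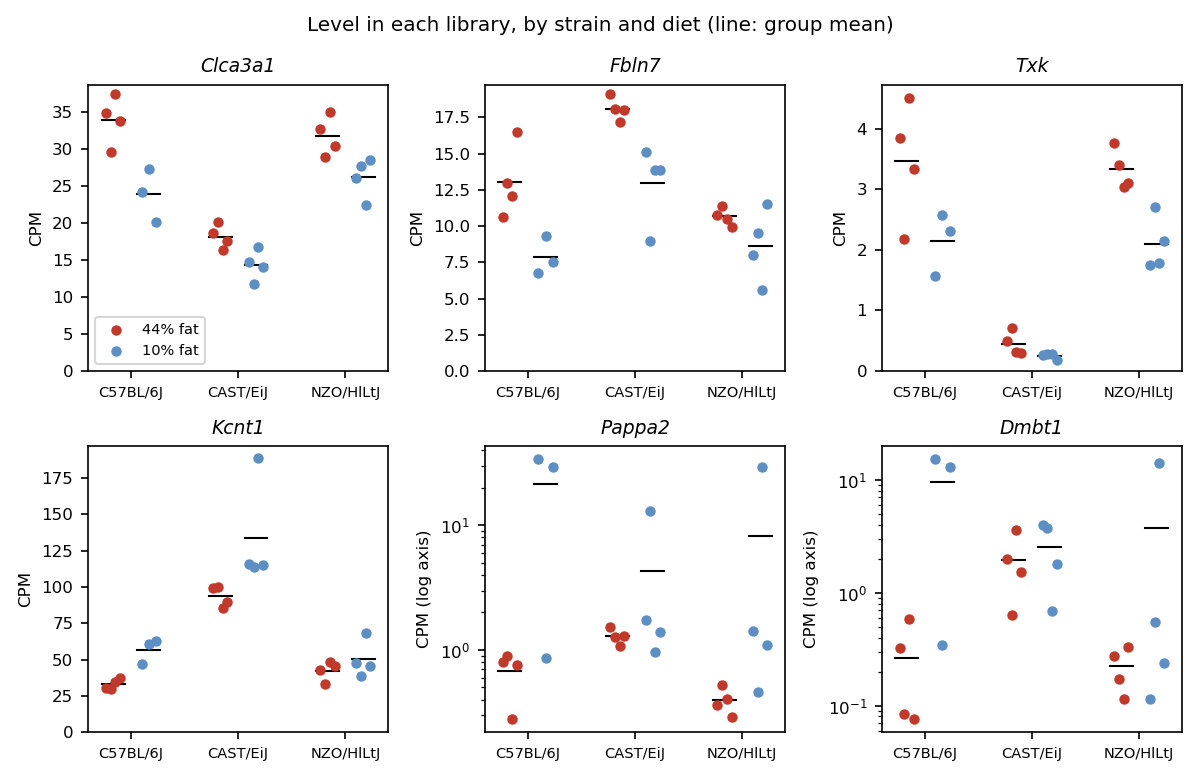
CPM of 6 genes in each library, by strain on the x axis, with 44% fat in red left of 10% fat in blue and a line at each group mean; Pappa2 and Dmbt1 have log axes. Clca3a1, Fbln7 and Txk are higher on 44% fat in most libraries, while the 10% fat values of Pappa2 and Dmbt1 split into libraries near the 44% fat level and libraries many fold above it.

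Pappa2, a protease that cuts insulin-like growth factor binding proteins, was the lowest in p of the genes on the lower side. It lies on chromosome 1 at 158711727 to 158980490. C57BL/6J had 0.794, 0.902, 0.277 and 0.754 CPM on 44% fat, against 34.1, 0.859 and 29.5 CPM on 10% fat. CAST/EiJ had 1.53, 1.28, 1.07 and 1.3 CPM on 44% fat, against 1.74, 13.0, 0.968 and 1.39 CPM on 10% fat. NZO/HlLtJ had 0.364, 0.519, 0.401 and 0.288 CPM on 44% fat, against 1.42, 0.458, 29.6 and 1.1 CPM on 10% fat. No library on 44% fat exceeded 1.53 CPM, while C57BL/6J replicates 1 and 3, CAST/EiJ replicate 2 and NZO/HlLtJ replicate 3 on 10% fat held 13.0 to 34.1 CPM and the other 10% fat libraries up to 1.74 CPM. The diets overlapped in every strain. The log2 difference was -3.69 (95% interval -5.16 to -2.21), with an adjusted p of 0.462 in edgeR. It was -3.17 without both libraries rich in oviduct RNA, -2.11 in series 76, -3.32 in series 82 and 0.15 in series 90. In series 90 only CAST/EiJ has both diets, while C57BL/6J and NZO/HlLtJ are there on 44% fat alone.

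Dmbt1, a secreted scavenger glycoprotein of epithelia, followed those libraries in C57BL/6J and NZO/HlLtJ. C57BL/6J had 0.322, 0.0845, 0.581 and 0.0754 CPM on 44% fat, against 15.3, 0.343 and 13.0 CPM on 10% fat. NZO/HlLtJ had 0.273, 0.173, 0.115 and 0.332 CPM on 44% fat, against 0.115, 0.549, 14 and 0.236 CPM on 10% fat. In CAST/EiJ the diets were mixed, at 1.99, 0.64, 3.59 and 1.52 CPM on 44% fat against 4.01, 3.75, 0.695 and 1.81 CPM on 10% fat. The averaged log2 difference was -3.19, and it was -1.99 without NZO/HlLtJ 10% fat replicate 3. Scg2, a granule protein of neuroendocrine cells, was under 1.5 CPM in all libraries, with its highest values of 1.44 and 1.04 CPM in C57BL/6J 10% fat replicate 3 and NZO/HlLtJ 10% fat replicate 3. Gabrb1, a subunit of the GABA-A receptor, had 2.23, 2.06, 1.33 and 2.64 CPM on 44% fat in C57BL/6J, against 5.13, 1.25 and 4.4 CPM on 10% fat. In NZO/HlLtJ it had 2.39, 2.37, 1.43 and 2.35 CPM on 44% fat, against 2.83, 2.61, 4.43 and 2.33 CPM on 10% fat. CAST/EiJ had 1.05, 0.64, 0.757 and 0.425 CPM on 44% fat, against 1.62, 3.91, 1.54 and 2.89 CPM on 10% fat. The diets did not overlap in CAST/EiJ, where the log2 difference of Gabrb1 was -1.79 with an adjusted p of 0.0473 in edgeR's test within that strain. C57BL/6J replicates 1 and 3 and NZO/HlLtJ replicate 3 on 10% fat were the high libraries of their strains for Pappa2, Dmbt1 and Gabrb1. Mab21l3, of the Mab-21 family, had its highest values in CAST/EiJ, at 1.17, 1.13, 1.29 and 1.4 CPM on 44% fat against 2.09, 8.58, 10.6 and 2.26 CPM on 10% fat, where the diets did not overlap. Its averaged log2 difference was -1.40, that of Scg2 was -2.28 and that of Gabrb1 was -1.03, each with an adjusted p of 0.507.

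Kcnt1, a sodium-activated potassium channel, was lower on 44% fat without such a split. C57BL/6J had 30.8, 29.6, 34.4 and 37.5 CPM on 44% fat, against 46.8, 61.1 and 63.1 CPM on 10% fat. CAST/EiJ had 99.2, 100.0, 85.6 and 89.6 CPM on 44% fat, against 116, 114, 189 and 115 CPM on 10% fat. NZO/HlLtJ had 42.7, 33.1, 48.5 and 46.0 CPM on 44% fat, against 47.5, 38.8, 68.6 and 45.9 CPM on 10% fat. The diets did not overlap in C57BL/6J or CAST/EiJ and overlapped in NZO/HlLtJ. The log2 difference was -0.51 (95% interval -0.73 to -0.29), with -0.78, -0.51 and -0.24 in C57BL/6J, CAST/EiJ and NZO/HlLtJ. The adjusted p was 0.507, or 0.00721 with DESeq2, and series 76, 82 and 90 gave -0.34, -0.63 and -0.72. The remaining gene on the lower side, 1010001B22Rik, was under 0.5 CPM in every library. In CAST/EiJ it had 0.0243 CPM in 1 library on 44% fat and 0 in the other 3, against 0.109 to 0.164 CPM on 10% fat.

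**Figure D3:**
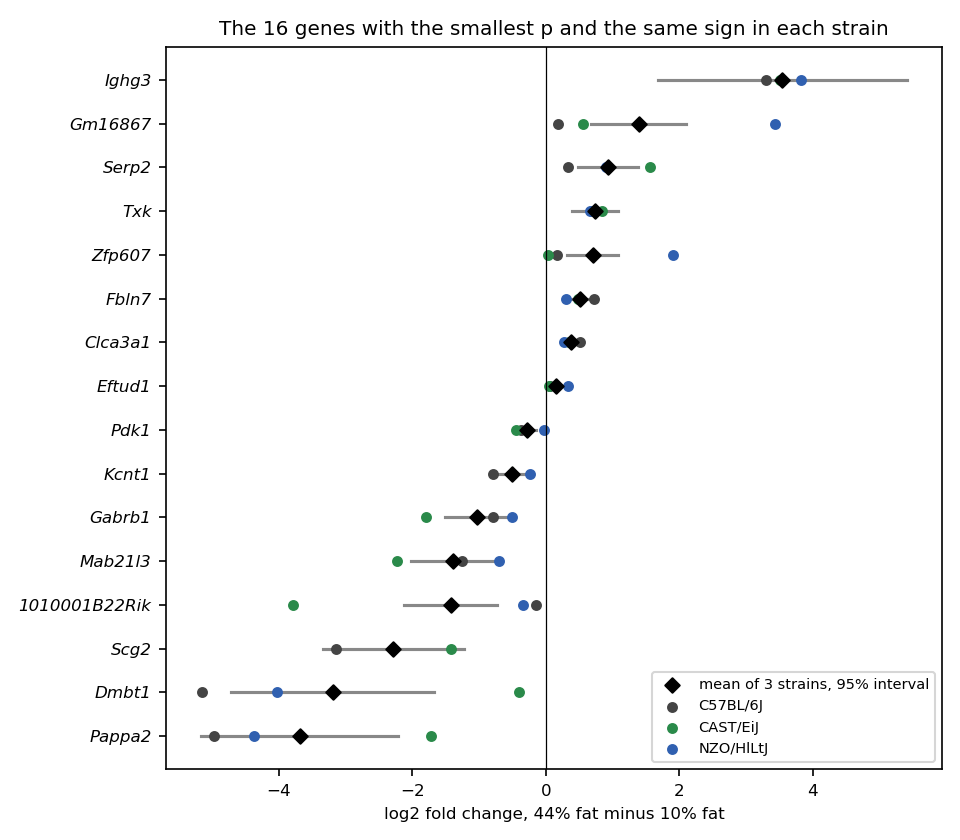
Log2 fold change (44% fat minus 10% fat, x axis) of the 16 genes down the page, with the mean of the 3 strains and its 95% interval as a black diamond and line and each strain as a coloured dot. Ighg3, Txk, Clca3a1, Fbln7 and Scg2 have all 3 strains inside the interval, while Gm16867 and Zfp607 are drawn by NZO/HlLtJ and 1010001B22Rik by CAST/EiJ.

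The libraries of the 2 diets did not overlap in C57BL/6J for 1631 genes (8.08%), in CAST/EiJ for 1187 (5.88%) and in NZO/HlLtJ for 598 (2.96%). No gene separated the diets in all 3 strains in the same direction (0 of 20189, 0%). The diets were separate in 2 strains, with the same sign in the third, for 21 genes (0.104%), among them Clca3a1, Fbln7, Txk, Kcnt1 and Eftud1. In groups this small some genes separate by chance, more readily in C57BL/6J with its 3 libraries on 10% fat. These counts alone therefore show no effect of diet. An unadjusted p under 0.05 within each of the 3 strains, with the same sign, was reached by 4 genes (0.0198%), Clca3a1, Txk, Ighg3 and Gm43490. Gm43490 was at 0.172 to 1.02 CPM on 44% fat and 0.262 to 1.49 CPM on 10% fat, with a log2 difference of -0.63. For each of the 16, the test of a strain-by-diet difference missed the threshold, with adjusted p from 0.128 for 1010001B22Rik to 0.989 for Ighg3, which does not show that the strains responded alike.

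Genes of cholesterol synthesis leaned higher on 44% fat in C57BL/6J and CAST/EiJ, and barely so in NZO/HlLtJ. Of 24 genes of synthesis and uptake, 21 had a higher value on 44% fat, beside 47.3% of all genes tested, and 12 were higher in each of the 3 strains, beside 10% of all genes. At an unadjusted p under 0.05, 9 were higher (2.61% of all genes) and 1 was lower (3.28% of all genes), and all 10 had the same sign in each strain. None passed the adjusted threshold in edgeR. The median log2 difference was 0.22, against -0.01 over all genes, with 0.33 in C57BL/6J, 0.33 in CAST/EiJ and 0.05 in NZO/HlLtJ. By value, 17, 20 and 15 of the 24 were higher in the same order of strains.

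In the mevalonate arm, Idi1, the isomerase of isopentenyl diphosphate, had 124, 59.1, 144 and 61.0 CPM on 44% fat in C57BL/6J, against 58.1, 64.4 and 75.7 CPM on 10% fat. CAST/EiJ had 51.7, 56.1, 59.7 and 77.1 CPM on 44% fat, against 40.6, 62.2, 34.4 and 35.8 CPM on 10% fat. NZO/HlLtJ had 90.1, 120, 65.2 and 78.6 CPM on 44% fat, against 73.9, 106, 79.5 and 67.9 CPM on 10% fat. The diets overlapped in each strain, and C57BL/6J replicates 1 and 3 on 44% fat were far above the other libraries of that strain. The averaged log2 difference was 0.39 (95% interval 0.06 to 0.72), with an unadjusted p of 0.0235 and an adjusted p of 0.805. Mvd, the decarboxylase that makes isopentenyl diphosphate, differed by 0.50 (0.05 to 0.95), mostly through C57BL/6J at 1.14. Hmgcs1, the synthase at the head of the pathway, differed by 0.13 (-0.27 to 0.53) and was lower on 44% fat in C57BL/6J by -0.30. Mvk, the mevalonate kinase, differed by -0.08 and was lower in each strain.

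Fdft1, squalene synthase and the first step committed to sterols, had the smallest p of the list. In C57BL/6J it stood at 118, 69.5, 115 and 74.5 CPM on 44% fat, against 63.9, 98.1 and 65.6 CPM on 10% fat. In CAST/EiJ it stood at 104, 122, 96.2 and 115 CPM on 44% fat, against 71.3, 75.0, 72.9 and 72.6 CPM on 10% fat. In NZO/HlLtJ it stood at 91.5, 111, 101 and 108 CPM on 44% fat, against 95.6, 107, 73.8 and 86.3 CPM on 10% fat. The diets were separate in CAST/EiJ and overlapped in the other strains. The averaged log2 difference was 0.36 (95% interval 0.16 to 0.56), with an unadjusted p of 0.0013 and an adjusted p of 0.629.

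Hsd17b7, which reduces a sterol ketone and also converts estrone to estradiol in the corpus luteum, had the widest range of the list. In C57BL/6J it stood at 1210, 98.3, 1270 and 107 CPM on 44% fat, against 297, 64.0 and 46.8 CPM on 10% fat. In CAST/EiJ it stood at 46.5, 47.3, 130 and 50.8 CPM on 44% fat, against 32.9, 40.4, 29.3 and 36.0 CPM on 10% fat. In NZO/HlLtJ it stood at 399, 371, 47.9 and 344 CPM on 44% fat, against 57, 279, 43.7 and 48.0 CPM on 10% fat. The diets were separate in CAST/EiJ, while in the other strains libraries of both diets lay at either a high or a low level. The log2 difference was 1.58 (95% interval 0.51 to 2.65). The summed level of 8 luteal cell markers was highest in the C57BL/6J libraries highest in Hsd17b7, at 5270 and 5670 CPM in 44% fat replicates 1 and 3, and it was 5230 CPM in 10% fat replicate 1. Its part in the Hsd17b7 values was not tested.

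The later sterol steps were mostly higher by value. Tm7sf2 and Lss differed by 0.33 (0.03 to 0.63) and 0.36 (0.03 to 0.69), and Msmo1 by 0.22 (0.01 to 0.44). For Cyp51, Nsdhl and Sqle the values were 0.36, 0.25 and 0.28, with the same sign in each strain and intervals that include 0. Fdps, Sc5d and Dhcr7 were at 0.18, 0.18 and 0.23, with signs that differed between strains. Outside synthesis, Stard4, a carrier of cholesterol between membranes, differed by 0.22 (0.04 to 0.40). Srebf2, which encodes SREBP-2, differed by 0.03 (-0.11 to 0.17), and Insig1, which holds SREBP-2's escort back in the endoplasmic reticulum, by 0.10 (-0.16 to 0.37).

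The summed level of the 24 genes was 1740 to 4540 CPM on 44% fat against 1890 to 2530 CPM on 10% fat in C57BL/6J, where replicates 1 and 3 on 44% fat were the high ones at 3990 and 4540 CPM. It was 1820 to 2220 CPM on 44% fat against 1390 to 1930 CPM on 10% fat in CAST/EiJ, and 1610 to 2580 CPM on 44% fat against 1650 to 2490 CPM on 10% fat in NZO/HlLtJ. The diets overlapped in each strain. Leaving out 1 library at a time gave medians of 0.17 to 0.25, and 4 to 12 genes higher at an unadjusted p under 0.05, with 4 when C57BL/6J 44% fat replicate 3 was left out. Without both libraries rich in oviduct RNA the median was 0.23, with 10 genes higher. Within series 76 the strain medians were 0.64 in C57BL/6J, 0.31 in CAST/EiJ and 0.03 in NZO/HlLtJ. Series 82 gave 0.32 in C57BL/6J and -0.04 in CAST/EiJ, and series 90 gave 0.44 in CAST/EiJ.

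**Figure D4:**
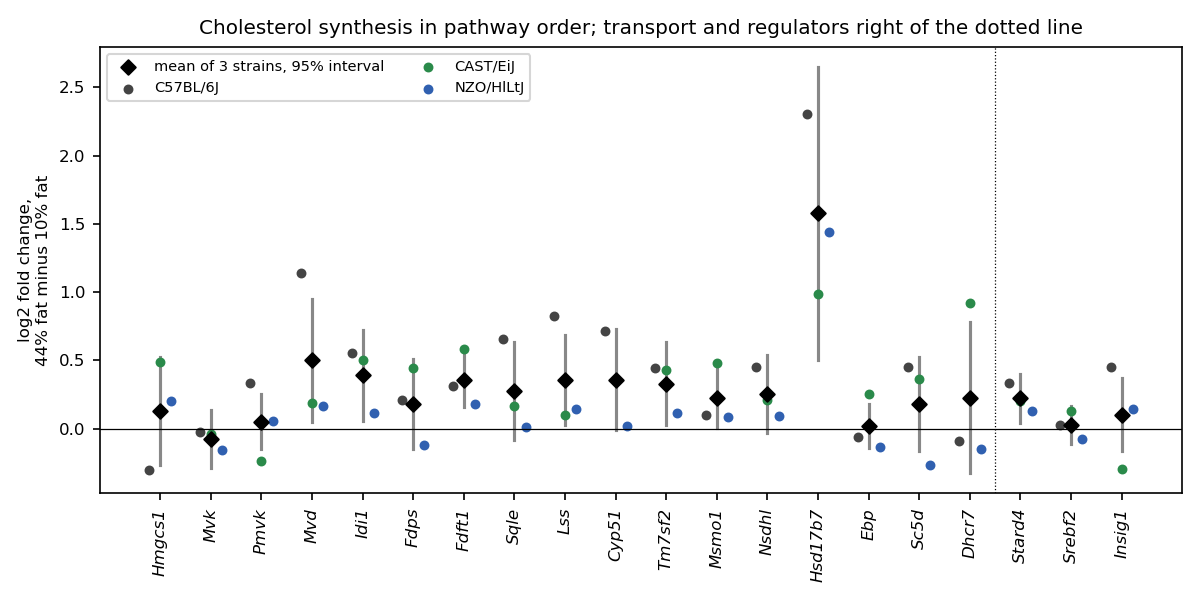
Log2 fold change (44% fat minus 10% fat, y axis) of 20 of the 24 genes in pathway order along the x axis, with the mean of the 3 strains and its 95% interval in black and each strain as a coloured dot. Most black diamonds lie above 0, the dots of NZO/HlLtJ lie nearest to 0 for most genes, and Hsd17b7 is far above the rest.

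Promoters of 3 of these genes are shown because most of the list's members were higher by value. They are Hsd17b7, with the largest difference, Idi1 and Hmgcs1. Of the 16 genes that could be searched, Hmgcs1 alone matched the sterol regulatory element. The windows run from 250 bases before to 50 bases after the start, from RefSeq on GRCm38.p6. Hmgcs1 is chr13:119690101-119690400 on the + strand, Idi1 is chr13:8885356-8885655 on the + strand, and Hsd17b7 is chr1:169969156-169969455 on the − strand. Capitals mark CCAAT boxes, which read ATTGG on the other strand, and in Hmgcs1 also the element TCACCCCAC, which begins 137 bases before the start.
Hmgcs1: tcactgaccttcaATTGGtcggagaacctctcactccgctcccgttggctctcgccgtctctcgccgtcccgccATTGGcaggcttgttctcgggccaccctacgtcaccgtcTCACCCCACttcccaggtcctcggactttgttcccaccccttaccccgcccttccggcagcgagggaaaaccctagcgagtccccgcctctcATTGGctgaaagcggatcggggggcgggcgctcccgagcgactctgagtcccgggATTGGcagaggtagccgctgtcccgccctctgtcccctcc
Idi1: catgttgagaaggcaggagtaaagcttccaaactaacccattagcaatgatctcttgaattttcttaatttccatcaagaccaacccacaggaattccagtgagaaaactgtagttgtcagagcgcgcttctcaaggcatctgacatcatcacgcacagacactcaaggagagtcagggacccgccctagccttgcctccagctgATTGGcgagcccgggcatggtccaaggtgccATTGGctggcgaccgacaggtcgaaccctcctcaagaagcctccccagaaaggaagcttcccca
Hsd17b7: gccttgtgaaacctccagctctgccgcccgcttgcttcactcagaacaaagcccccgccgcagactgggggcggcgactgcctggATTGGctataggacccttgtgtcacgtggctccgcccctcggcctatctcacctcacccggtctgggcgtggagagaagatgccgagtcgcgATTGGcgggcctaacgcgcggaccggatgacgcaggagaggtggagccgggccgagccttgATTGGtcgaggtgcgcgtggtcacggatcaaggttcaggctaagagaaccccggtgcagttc
Hmgcs1 has 4 CCAAT boxes, Hsd17b7 has 3 and Idi1 has 2, while Mvk, which was lower in each strain, has 5. Both strands were searched for TCACNCCAC and for CCAAT, and the motifs do not overlap each other. Of the 24 genes, 16 matched the RefSeq table with 19 windows, and 16 of the 19 windows hold a CCAAT box, against 12289 of 32851 windows of all genes (37.4%). TCACNCCAC was found in 1 of the 19 windows, that of Hmgcs1, against 408 of 32851 windows of all genes (1.24%). A match describes letters and not binding.

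Luteal and steroid genes had averaged medians above 0, with NZO/HlLtJ below 0 for both lists. Of 8 luteal markers 6 had a higher value on 44% fat, beside 47.3% of all genes, 3 of them at an unadjusted p under 0.05 (2.61% of all genes), and 1 was lower at that threshold (3.28% of all genes). The list median was 0.40 averaged over strains, with 0.48 in C57BL/6J, 1.14 in CAST/EiJ and -0.24 in NZO/HlLtJ. Lhcgr, the luteinising hormone receptor, had 533, 332, 580 and 529 CPM on 44% fat in C57BL/6J, against 326, 436 and 263 CPM on 10% fat. CAST/EiJ had 304, 1170, 290 and 386 CPM on 44% fat, against 146, 129, 408 and 144 CPM on 10% fat. NZO/HlLtJ had 557, 497, 333 and 601 CPM on 44% fat, against 463, 431, 156 and 289 CPM on 10% fat. Every strain overlapped, yet 6 of the 11 libraries on 10% fat lay below all 12 on 44% fat. Its log2 difference was 0.83 (95% interval 0.27 to 1.38), with an unadjusted p of 0.00556 and an adjusted p of 0.729.

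Scarb1, the receptor that takes cholesterol from high-density lipoprotein, differed by 0.49 (0.20 to 0.78), with 0.50, 0.90 and 0.07 in C57BL/6J, CAST/EiJ and NZO/HlLtJ. Ptgfr, the prostaglandin F receptor of luteal cells, differed by 1.20 (0.29 to 2.11), mostly through CAST/EiJ at 2.85. Parm1, a mucin-like protein of luteal cells, was the member lower at this threshold, by -0.67. On 10% fat it had 144 and 137 CPM in C57BL/6J replicates 1 and 3, 98.3 CPM in CAST/EiJ replicate 2 and 77.8 CPM in NZO/HlLtJ replicate 3, the libraries high in Pappa2, against 19.9 to 41.7 CPM in the other 10% fat libraries. On 44% fat Parm1 was at 96.0 CPM in CAST/EiJ replicate 3 and at 18.4 to 46.6 CPM in the rest. Among 18 genes of steroid synthesis, 12 were higher by value, and 4 were higher (2.61% of all genes) and 2 lower (3.28% of all genes) at an unadjusted p under 0.05. The list median was 0.19, with 0.06 in C57BL/6J, 0.53 in CAST/EiJ and -0.18 in NZO/HlLtJ. The 4 were Scarb1, Lhcgr, Hsd17b7 and Cyp11a1, the side-chain cleavage enzyme, and the last was at -0.06 in C57BL/6J, 1.35 in CAST/EiJ and -0.17 in NZO/HlLtJ. The 2 were Srd5a1, a steroid reductase, at -0.48 with the same sign in each strain, and Por, the electron donor of the P450 enzymes, at -0.19 with mixed signs. The summed luteal level was 2350 to 3730 CPM on 44% fat against 1050 to 2120 CPM on 10% fat in CAST/EiJ, and the diets overlapped in the other strains.

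Of 20 genes of fatty acid synthesis, 7 had a higher value on 44% fat, beside 47.3% of all genes, and 3 were higher at an unadjusted p under 0.05 (2.61% of all genes), with 0 lower. The list median was -0.13, with 0.22 in C57BL/6J, -0.15 in CAST/EiJ and -0.06 in NZO/HlLtJ. It became 0.14 with CAST/EiJ 10% fat replicate 2 left out and 0.06 with both libraries rich in oviduct RNA left out. The 3 genes take part in making polyunsaturated fatty acids. Fads1 and Fads2, the delta-5 and delta-6 desaturases, differed by 0.28 (0.09 to 0.47) and 0.46 (0.16 to 0.77), and Elovl5, an elongase, by 0.33 (0.08 to 0.58). Elovl5 and Fads1 were higher in each strain, while Fads2 was at 0.65, 0.83 and -0.09 in C57BL/6J, CAST/EiJ and NZO/HlLtJ. Elovl5 averaged 539.6 ± 199.6 CPM on 44% fat and 396.9 ± 57 CPM on 10% fat in C57BL/6J, 447.6 ± 69.7 CPM on 44% fat and 347 ± 55.0 CPM on 10% fat in CAST/EiJ, and 450.3 ± 64.2 CPM on 44% fat and 397.1 ± 50.9 CPM on 10% fat in NZO/HlLtJ (SD). Scd2, a stearoyl-CoA desaturase, differed by 0.17 (-0.004 to 0.35).

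Of 33 genes of fatty acid oxidation, 18 had a higher value on 44% fat, beside 47.3% of all genes, and 3 were higher at an unadjusted p under 0.05 (2.61% of all genes), with 0 lower. The median was 0.02, with -0.13 in C57BL/6J, 0.19 in CAST/EiJ and -0.02 in NZO/HlLtJ. Acaa2, the last thiolase of mitochondrial oxidation, and Cpt2, which takes acyl groups into the matrix, differed by 0.19 (0.04 to 0.35) and 0.21 (0.04 to 0.38) with the same sign in each strain. Acadm, the medium-chain dehydrogenase, was at -0.17 in C57BL/6J, 0.45 in CAST/EiJ and -0.02 in NZO/HlLtJ, and its strain-by-diet difference passed the threshold (adjusted p 0.020). Among 25 genes of lipid droplets and lipid transport, 15 were higher by value, beside 47.3% of all genes, and 2 were higher at an unadjusted p under 0.05 (2.61% of all genes), with 0 lower. These were Abcg1, a cholesterol exporter, at 0.32, nearly all from CAST/EiJ at 1.02, and Mylip, a ubiquitin ligase induced by liver X receptors, at 0.18. The count of 2 was 7 without both libraries rich in oviduct RNA, and 1 to 9 with 1 library left out, highest without CAST/EiJ 10% fat replicate 2.

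Genes of glucose use leaned lower. Of 25 genes of glycolysis and glucose use, 22 had a lower value on 44% fat, beside 52.7% of all genes, and 6 were lower at an unadjusted p under 0.05 (3.28% of all genes), with 0 higher. The median was -0.11, with -0.22 in C57BL/6J, 0.04 in CAST/EiJ and -0.05 in NZO/HlLtJ, so the lean was not shared by CAST/EiJ. Pdk1, the kinase that shuts off pyruvate dehydrogenase, had 30.2, 35.1, 27.4 and 35.9 CPM on 44% fat in C57BL/6J, against 39.8, 41.7 and 42.8 CPM on 10% fat. CAST/EiJ had 51.4, 39.0, 38.1 and 43.5 CPM on 44% fat, against 56.1, 49.0, 66.2 and 63.5 CPM on 10% fat. NZO/HlLtJ had 25.3, 28.9, 28.3 and 26.4 CPM on 44% fat, against 24.8, 27.0, 28.8 and 30.6 CPM on 10% fat. The diets were separate in C57BL/6J, nearly so in CAST/EiJ, and mixed in NZO/HlLtJ. The log2 difference was -0.28 (95% interval -0.41 to -0.15), with an adjusted p of 0.507, or 0.0487 with DESeq2.

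Pgk1 and Ldha, which encode phosphoglycerate kinase and lactate dehydrogenase, were lower in each strain, by -0.37 (-0.64 to -0.09) and -0.29 (-0.52 to -0.05). The 10% fat libraries high in Pappa2 were the highest of their groups for both genes. For Pgk1 they had 236 and 242 CPM in C57BL/6J, 160 CPM in CAST/EiJ and 156 CPM in NZO/HlLtJ. For Ldha they had 280 and 295 CPM in C57BL/6J, 321 CPM in CAST/EiJ and 312 CPM in NZO/HlLtJ. In CAST/EiJ, Pgk1 was at 83.6 to 127 CPM on 44% fat, against 114, 75.9 and 82.8 CPM in the 10% fat libraries other than replicate 2. The part of those libraries in the 2 differences was not tested. Pfkl, the liver-type phosphofructokinase, was lower in each strain as well, by -0.16. Eno1 and Tpi1, an enolase and the triose phosphate isomerase, were at -0.19 and -0.14 with CAST/EiJ on the other side of 0. The summed level of the 25 genes was 4890 to 5210 CPM on 44% fat against 5900 to 6150 CPM on 10% fat in C57BL/6J, where the diets did not overlap. They overlapped in CAST/EiJ and NZO/HlLtJ.

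Adamts1 and Runx1, genes of the ovulatory response, were high in 4 of the 10% fat libraries, while not every gene of the list was. Of 14 genes tested, 10 had a lower averaged value on 44% fat, beside 52.7% of all genes, and 5 were lower at an unadjusted p under 0.05 (3.28% of all genes). The median was -0.64, with 0.03 in C57BL/6J, -1.07 in CAST/EiJ and -0.64 in NZO/HlLtJ, so the lower median was not shared by C57BL/6J. Without CAST/EiJ 10% fat replicate 2 the median was -0.24 and 2 genes were lower at that threshold, and without both libraries rich in oviduct RNA the median was -0.23 and 2 of 13 tested were. Adamts1, a matrix protease needed for ovulation in mice, had 83.3, 68.4, 84.5 and 63.5 CPM on 44% fat in C57BL/6J, against 443, 72.1 and 312 CPM on 10% fat. CAST/EiJ had 31.9, 54.5, 145 and 51.8 CPM on 44% fat, against 29.6, 488, 33.3 and 26.0 CPM on 10% fat. NZO/HlLtJ had 73.9, 72.0, 43.7 and 67.0 CPM on 44% fat, against 76.6, 68.1, 411 and 64.1 CPM on 10% fat. The 4 libraries above 300 CPM were the same 4 libraries on 10% fat that were high in Pappa2. Runx1, a transcription factor of the surge, had 284 and 292 CPM in the C57BL/6J pair of those libraries, 192 CPM in the CAST/EiJ one and 128 CPM in the NZO/HlLtJ one. The other 10% fat libraries had 41.4 to 56.6 CPM, and libraries on 44% fat had 40.0 to 96.3 CPM. Ptgs2, which makes prostaglandins for ovulation, was 16.4 CPM in CAST/EiJ 10% fat replicate 2 and at most 2.41 CPM in every other library. Its log2 difference was -2.38, and edgeR gave it an adjusted p of 0.629 where DESeq2 gave 0.0249. In the C57BL/6J pair Ptgs2 had 1.02 and 0.718 CPM, with up to 1.02 CPM on 44% fat. NZO/HlLtJ 10% fat replicate 3 had 1.15 CPM, against 2.41 and 2.07 CPM in replicates 1 and 4. Tnfaip6, of the same list, had 12.6 CPM in the CAST/EiJ library. The C57BL/6J pair had 1.29 and 1.59 CPM, with up to 2.54 CPM on 44% fat. NZO/HlLtJ replicate 3 had 2.43 CPM, against 3.15 and 2.28 CPM in replicates 1 and 4. The part of cycle stage in these values was not tested, since no stage is labelled.

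Immediate early genes, which cells switch on within minutes of a stimulus, leaned higher in C57BL/6J. Of 22 genes, 15 were higher by value, beside 47.3% of all genes, and 5 were higher at an unadjusted p under 0.05 (2.61% of all genes), with 0 lower and a median of 0.11. With 1 library left out the count of 5 was 2 to 7, and it was 2 without C57BL/6J 44% fat replicate 3 or without CAST/EiJ 44% fat replicate 4. Ier2 and Egr1 differed by 0.33 (0.07 to 0.59) and 0.42 (0.09 to 0.76), and Nr4a1 and Fosb by 0.99 (0.12 to 1.87) and 0.92 (0.08 to 1.76), each higher in every strain. The smallest strain values were 0.04 for Egr1 in CAST/EiJ, and 0.24 for Nr4a1 and 0.10 for Fosb in NZO/HlLtJ. Fos, the fifth, was higher in C57BL/6J and NZO/HlLtJ and at -0.09 in CAST/EiJ. The list median was 0.54 in C57BL/6J, 0.08 in CAST/EiJ and -0.04 in NZO/HlLtJ.

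**Figure D5:**
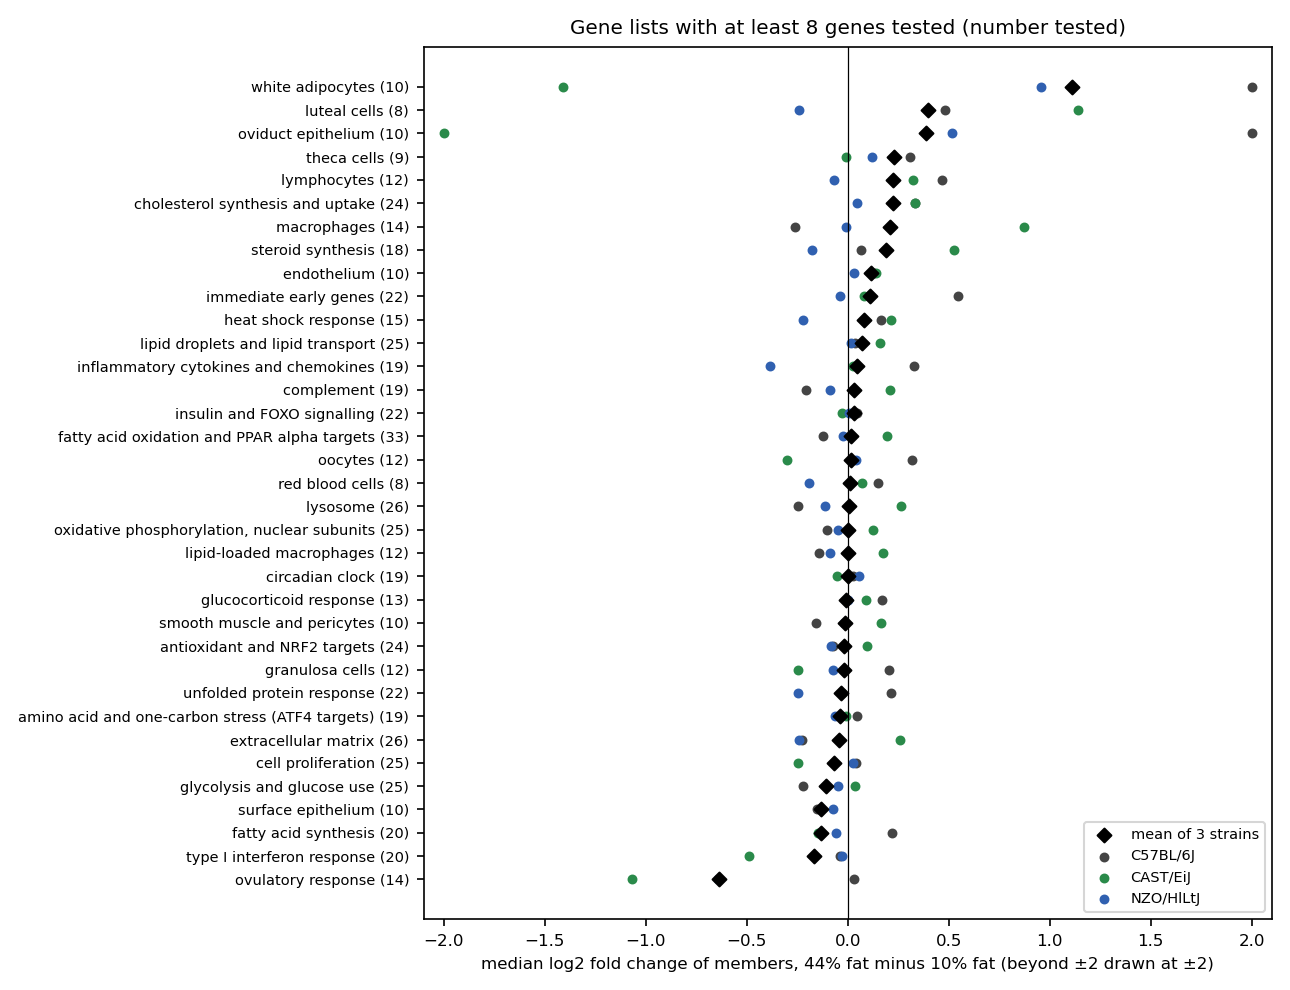
Median log2 fold change (44% fat minus 10% fat, x axis) of the members of each of 35 gene lists with at least 8 genes tested, down the page from the highest mean, with the mean of 3 strains as a black diamond and each strain as a coloured dot. Dots beyond 2 in size are drawn at 2 (C57BL/6J at 3.44 for white adipocytes and 2.56 for oviduct epithelium, CAST/EiJ at -2.55 for oviduct epithelium), and most lists have dots on both sides of 0.

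Over the 35 lists with at least 8 genes tested, all 3 strain medians were above 0 for 4 lists and below 0 for 2. The 4 were cholesterol synthesis and uptake, endothelium, lipid droplets and lipid transport, and glucocorticoid response. Their NZO/HlLtJ medians were close to 0, at 0.05, 0.03, 0.01 and 0.003 in that order. The averaged median of glucocorticoid response was -0.007. The 2 were surface epithelium and type I interferon response. No member of any list passed the adjusted threshold averaged over strains in edgeR, while DESeq2 called Pdk1 of glucose use and Ptgs2 of the ovulatory response.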

How the data were processed

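The authors deposited expected counts per gene, estimated from 100 bp read pairs of polyA-selected libraries, and a second table of log2 variance-stabilised values, per the file headers and the labels' protocols. Build GRCm38 and DESeq2 are named in the submitters' processing notes, and the aligner and the counter are not given in the sources used here. Of the count values, 27.4% were not whole, and they were rounded. Genes were filtered with filterByExpr by group (minimum count 10, minimum total 15), scaled by TMM and fitted with edgeR 4.0.16's robust quasi-likelihood model in R 4.3.3, with 6 group means over 23 libraries and p-values adjusted by Benjamini-Hochberg over all 20189 genes. The common biological coefficient of variation was 0.268, and the median standard error of the averaged log2 difference was 0.116. Intervals are 95% intervals from the fit. CPM come from the scaled libraries. Fold changes are on the log2 scale. A chi-square per degree of freedom between libraries of 1 group was 11.55 to 203.5 over the 33 pairs, so no library looked deposited again under another name.

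Genes were named by rule: those past the threshold with the same sign in each strain (0 genes), those whose diets do not overlap in any strain (0 genes), otherwise the 8 smallest p per direction with the same sign (16 genes), and up to 4 members of each list described. Some list members are not reported here by name, though the list counts and medians include them. Gm43490 and the further list members were named after their values were seen. The members and 37 gene lists were chosen with earlier results of these data known, and the 9 lists described were picked after their values were seen. Alternatives were DESeq2 1.42.0, relative log expression scaling, no filter, an additive model, identifier series as a term, 2 surrogate variables (sva 3.50.0), limma 3.58.1 with library weights and on the log2 variance-stabilised values, leaving out both libraries rich in oviduct RNA, and leaving out each library. The code was tested on simulated data.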

Additional observations from a re-analysis of the deposited data

Results flagged for a closer look

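In 245 groups of 4 libraries checked over the 49 named genes, 23 values lay far from the other 3 libraries of their group, and chance sets apart about 1 group in 20. CAST/EiJ 10% fat replicate 2 was high in Runx1 (192 CPM, the others 44.1 to 55.4), Adamts1 (488 CPM, the others 26 to 33.3) and Tnfaip6 (12.6 CPM, the others 0.348 to 0.54). It was low in Fbln7 (8.99 CPM, the others 13.9 to 15.1) and Soat1 (721 CPM, the others 1200 to 1320). NZO/HlLtJ 44% fat replicate 3 was low in Hsd17b7 (47.9 CPM, the others 344 to 399), Ptgfr (31.3 CPM, the others 219 to 240), Elovl5 (355 CPM, the others 471 to 497), Gabrb1 (1.43 CPM, the others 2.35 to 2.39) and Egr1 (79.3 CPM, the others 159 to 179). NZO/HlLtJ 44% fat replicate 4 was high in Acaa2 (229 CPM, the others 175 to 182).

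NZO/HlLtJ 10% fat replicate 3 was high in Adamts1 (411 CPM, the others 64.1 to 76.6), and replicate 2 of that group was high in Hsd17b7 (279 CPM, the others 43.7 to 57). CAST/EiJ 10% fat replicate 3 was high in Kcnt1 (189 CPM, the others 114 to 116) and Lhcgr (408 CPM, the others 129 to 146). Replicate 4 of that group was low in Txk (0.184 CPM, the others 0.258 to 0.273) and Fosb (0.473 CPM, the others 0.815 to 0.845). CAST/EiJ 44% fat replicate 3 was high in Hsd17b7 (130 CPM, the others 46.5 to 50.8) and Scarb1 (1040 CPM, the others 606 to 646), and replicate 2 in Abcg1 (57.3 CPM, the others 29.8 to 32.5). In replicate 1 of that group 1010001B22Rik was at 0.0243 CPM, with the others at 0. C57BL/6J 44% fat replicate 3 was low in Pappa2 (0.277 CPM, the others 0.754 to 0.902), and replicate 2 was low in Lhcgr (332 CPM, the others 529 to 580).

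The effect of diet differed between strains for 23 genes in edgeR's test of the strain-by-diet difference, and for 9 of them the averaged contrast had an unadjusted p under 0.05. Acadm was the 1 named gene among the 23.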

How the results depend on the processing

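All 49 named genes kept the direction of their averaged difference in 32 of 32 alternative fits, and 13 of them passed the threshold in at least 1. They were chosen mostly by small p from the same libraries that the alternative fits reuse. A kept direction was therefore close to fixed by the choice and is no evidence of its own. Averaged over strains, DESeq2 called 18 genes and limma with library weights 1, with 13 and 1 of them having the same sign in each strain, against 0 in edgeR. Leaving out 1 library gave 0 to 7 calls, 0 to 6 with the same sign, and every call came without C57BL/6J 10% fat replicate 2. The fit without that library keeps replicates 1 and 3 of its group, the pair high in Pappa2. For the strain-by-diet difference, edgeR's 23 calls became 540 with DESeq2, 965 with limma with library weights, 2 with identifier series as a term, 0 with 2 surrogate variables, 11 without both libraries rich in oviduct RNA, and 0 to 323 with 1 library left out, lowest without CAST/EiJ 10% fat replicate 1 and highest without C57BL/6J 10% fat replicate 2. For diet in C57BL/6J, 0 calls became 51 with DESeq2, 791 with limma with library weights, 1 with 2 surrogate variables, and 0 to 330 with 1 library left out, highest without C57BL/6J 10% fat replicate 2. In CAST/EiJ, 126 calls became 606 with DESeq2, 66 with identifier series as a term, 72 with 2 surrogate variables, 220 with limma with library weights, 78 with limma on variance-stabilised values, and 28 to 220 with 1 library left out, lowest without CAST/EiJ 44% fat replicate 2 and highest without CAST/EiJ 10% fat replicate 1. In NZO/HlLtJ, 0 calls became 4 with DESeq2, 2 with limma with library weights, and 0 to 1 with 1 library left out. The cause of these shifts was not tested. No paired analysis was possible because the labels give no replicate numbers. Precision falls with level: under a mean of 5 CPM, the 95% interval lay within 2-fold of no difference for 64% of 7847 genes, against 97.6% of genes at 5 CPM or more.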

Other observations

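All 10 endothelial markers had a higher averaged value on 44% fat, beside 47.3% of all genes. The number of them higher in every strain at once was 5, beside 10% of all genes. The median log2 difference was 0.11, with strain medians of 0.13 in C57BL/6J, 0.14 in CAST/EiJ and 0.03 in NZO/HlLtJ. In NZO/HlLtJ 6 of the 10 were higher by value. Tie1, a receptor of vessel lining cells, was the 1 member higher at an unadjusted p under 0.05 (2.61% of all genes), at 0.23. The summed level was 509 to 776 CPM on 44% fat against 504 to 689 CPM on 10% fat in C57BL/6J, 497 to 595 CPM on 44% fat against 446 to 514 CPM on 10% fat in CAST/EiJ, and 469 to 571 CPM on 44% fat against 505 to 550 CPM on 10% fat in NZO/HlLtJ, so the diets overlapped in each strain. Of 10 surface epithelium markers, 9 were lower by value, beside 52.7% of all genes, with a median of -0.13. The keratins Krt8 and Krt18 took most of their values of -0.56 and -0.60 from CAST/EiJ, at -1.71 and -1.70. In CAST/EiJ 10% fat replicate 2, the library richest in oviduct RNA, Krt8 and Krt18 were at 103 and 127 CPM. The other CAST/EiJ libraries had 9.54 to 12.9 CPM on 44% fat against 13.7 to 23.4 CPM on 10% fat for Krt8, and 7.96 to 15.7 CPM on 44% fat against 13.3 to 16.6 CPM on 10% fat for Krt18. That library also had the highest summed level of the surface markers, 590 CPM. The 2 markers lower at an unadjusted p under 0.05 (3.28% of all genes) became 0 without both libraries rich in oviduct RNA. Of 20 type I interferon response genes, 16 were lower by value, beside 52.7% of all genes, with a median of -0.17. None of them, 0 of the 16, was at an unadjusted p under 0.05 in edgeR's test. Without CAST/EiJ 44% fat replicate 1, 1 was higher by value, 9 were lower at that threshold and the median was -0.38. Other omissions weakened the lean. The median was -0.06 without C57BL/6J 10% fat replicate 1 and -0.09 without CAST/EiJ 44% fat replicate 3, each with 0 lower at that threshold. Within CAST/EiJ the median was 1.53 in series 76, -1.64 in series 82 and -1.33 in series 90.

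Macrophage markers had medians of opposite sign, with log2 differences of -0.26 in C57BL/6J, 0.87 in CAST/EiJ and -0.01 in NZO/HlLtJ. The difference between strains was not tested for the list, and 0 of 14 genes had the same sign in each strain, beside 20.8% of all genes. Their summed level in CAST/EiJ was 382 to 745 CPM on 44% fat against 234 to 306 CPM on 10% fat, without overlap. In C57BL/6J it was 376 to 518 CPM on 44% fat against 488 to 666 CPM on 10% fat.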
